A study of Schizosaccharomyces pombe with 16 samples.

Results

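The genes described here are those within 80000 bases of the left end or of the last annotated base of chromosome II of the fission yeast Schizosaccharomyces pombe. They are the rows of the deposited expression table that lie on chromosome II, carry no SPNCRNA (non-coding RNA) identifier and end at or before base 80000 or start at or after base 4452899, which is 80000 bases before the largest annotated end on that chromosome. Distances at the right end are counted from that annotated end, base 4532899, called the right tip here. The reference sequence of the chromosome runs on to base 4539804. The rows SPBPB2B2.10c, SPBPB2B2.12c and SPBPB2B2.13 were left out. This gave 53 genes of 7022 table rows, 29 at the left end and 24 at the right. The rule uses positions and identifiers and no measured value, but the genes were chosen with earlier results of these data known. The innermost gene inside the limit on the left was SPBPB21E7.09, which ends at base 77625, and the next one out of it was SPBPB10D8.01, which ends at base 83357. On the right, fub2 starts at base 4453054, just inside, and pho1 at base 4446373, just outside.

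Polyadenylated RNA was sequenced from 8 strains, with 2 biological replicate cultures and so 2 libraries each, 16 libraries in all. All strains grew in YES, a rich yeast extract medium, at 30 °C and were collected at a low optical density. The strains differ in the C-terminal domain (CTD) of Rpb1, the largest subunit of RNA polymerase II, which is a long run of a repeated heptad whose residues are named by their place in it. The strain labels give rpb1CTD-WT 1-18 for the control, called WT here. They give rpb1CTD-Y1F (tyrosine 1 changed to phenylalanine), S2A (serine 2 to alanine), T4A (threonine 4 to alanine) and S7A (serine 7 to alanine) for the single mutants. The double mutants are Y1F-S7A, S2A-S7A and T4A-S7A. All 8 strains carry the markers ade6, ura4-D18 and leu1-32. The mating type is h+ in S2A and h- in the 7 others, S2A-S7A included, so each comparison of S2A with another strain also compares mating types, whose part in the result cannot be told apart from that of the CTD change.

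Subtelomeres are the stretches next to the telomere repeats. In fission yeast they are covered in part by heterochromatin with methylated histone H3 lysine 9, are compact and poorly transcribed, and hold genes for sugar, amino acid and sterol metabolism together with repeated sequence shared between chromosome ends. The phosphorylated CTD of RNA polymerase II recruits RNA processing factors, histone modifiers and elongation factors during transcription.

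Most genes made up mainly of repeated sequence had no reads, and whether the repeats were the cause was not tested. In the reference assembly ASM294v3, all 53 genes were matched to RefSeq by locus tag, with the same strand and at least 1 shared boundary. RefSeq lists 46 of them as protein-coding and 7 as pseudogenes. Windows of 50 bases were counted as unique when they occur once in the assembly. Under 50% of the windows were unique in 13 of the 29 left genes and in 16 of the 24 right genes, against 4.249% of the 1930 inner rows of chromosome II. A protein copy elsewhere, with at least 90% identity over at least 90% of the length, was found for 14 left and 12 right genes. The following stretches of 80 coding bases, from ASM294v3, show how close the copies are. They are given 5′ to 3′ on the coding strand, and capitals mark the bases that differ within a pair. SPBC1348.06c (chrII:16513-16592, minus strand) and SPBPB2B2.15 (chrII:4496373-4496452, plus strand) code for a Vel1p domain protein and sit at opposite ends of the chromosome.
SPBC1348.06c: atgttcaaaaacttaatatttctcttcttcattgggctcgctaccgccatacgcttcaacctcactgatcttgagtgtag
SPBPB2B2.15: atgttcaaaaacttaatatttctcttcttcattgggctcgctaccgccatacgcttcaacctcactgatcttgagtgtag
SPBC1348.07 (chrII:19655-19734, plus strand) and SPBPB2B2.14c (chrII:4493229-4493308, minus strand) are a second pair, of uncharacterized proteins.
SPBC1348.07: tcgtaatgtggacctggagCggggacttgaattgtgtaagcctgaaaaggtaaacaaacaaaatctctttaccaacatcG
SPBPB2B2.14c: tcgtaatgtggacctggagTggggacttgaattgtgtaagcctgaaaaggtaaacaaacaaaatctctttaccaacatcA
The first pair was identical over all 612 coding bases. The second pair differed at 4 of 693 bases, an identity of 99.42%, and 2 of the 4 are in the stretch shown. All 4 genes had 0 reads in all 16 libraries.

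In total 24 genes, 12 at each end, had no read in any library. Of these, 23 had under 50% unique windows. They lay within 26.2 kb of the left tip and between 6.02 and 39.5 kb of the right tip. The 24th, SPBPB21E7.05, an uncharacterized protein gene with 100% unique windows, also had 0 reads, and a count of 0 allows up to 3 reads, or 0.096 to 0.161 CPM, a read count scaled to library size, over the range of depths. How reads that fit several places were counted is not given in the sources used here, so a count of 0 in a repeated gene is not a measured absence of its RNA. Another 6 genes had reads but too few to test, at most 69 reads over the 16 libraries. This left 23 tested genes, 13 on the left and 10 on the right. Of those, 19 had at least 50% unique windows. The other 4 were SPBPB8B6.05c (26.4%), fex2 (25.4%), SPBPB2B2.07c (39.8%) and tlh2 (6.76%). A filter on low counts chose these 23, and SPBC1348.11 and SPBPB2B2.07c passed it only through the libraries of S2A and S2A-S7A, where they were high. The other 21 pass it without those 4 libraries.

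**Figure D1:**
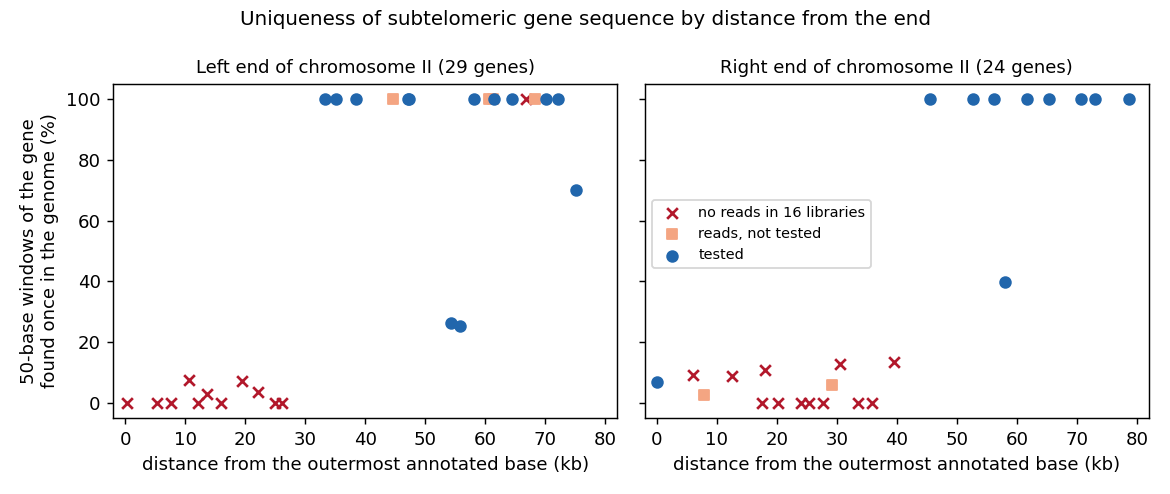
Share of 50-base windows found once in the assembly (vertical axis, %) for each gene against its distance from the outermost annotated base (horizontal axis, kb), for the 29 left and 24 right genes. Crosses are the 24 genes with no reads, squares the 6 with too few reads to test and circles the 23 tested genes; the crosses lie near 0% and close to the tips, apart from SPBPB21E7.05 at 100%.

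Most of the genes that had reads were expressed at low levels in WT. On the scale of RPKM, a read count scaled to gene length and library size, the median over all 29 left genes was 0.0433 and over all 24 right genes 0, against 42.4 for the inner rows of chromosome II. These medians include the genes with no reads, whose RNA may not have been counted. Over the rows with reads in WT, the medians were 2.76 on the left, 3.04 on the right and 44.8 for the inner rows. Among the tested genes the WT level ran from 0.0273 RPKM in SPBPB2B2.07c to 128.8 RPKM in aes1, with a median of 3.14. The level of aes1, a phenazine biosynthesis family gene 70.2 kb from the left tip, was followed by that of its neighbour SPBPB21E7.08, a pseudogene in RefSeq, at 124 RPKM, and by that of pan5 (2-dehydropantoate 2-reductase, of pantothenate synthesis) at 67.2 RPKM. In bulk RNA, a change in the share of cells that express a gene and a change in the amount per cell cannot be told apart.

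Depth was 18677921 to 31254978 reads per library. rpb1 itself was measured at 199 to 368 CPM, and its count does not show the substitutions. ura4, deleted by the ura4-D18 marker, had 0 reads in all 16 libraries. The strains were compared with edgeR's quasi-likelihood test, with Benjamini-Hochberg adjustment over the 6420 features tested, and a gene was called at an adjusted p below 0.05. Every adjusted p here is from that fit unless another is named. With 2 libraries per strain, single calls often rest on 1 library, so the range of adjusted p is given over the 4 fits that each leave out 1 library of the 2 strains compared. Same-numbered replicates were taken to pair across strains because their deviations correlated, as the labels give only the number. The main fit does not use this pairing. Where a fit with the replicate number as a block adds a call against WT or against the parent of a double mutant, its adjusted p is given as the blocked adjusted p. For the other comparisons the blocked fit is given mostly by its counts.

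Of the 23 tested genes, 12 rose in S2A and 13 in S2A-S7A, the 2 strains with the serine 2 substitution. In S2A, 5 of 13 tested left genes and 7 of 10 right genes rose against WT and none fell, where 11.9% of all 6420 features were called, 7.17% higher and 4.72% lower. In S2A-S7A, 6 left and 7 right genes rose and none fell, against 16.5% of features called, 8.49% higher and 8.04% lower. The median log2 fold change of the tested genes in S2A was 0.20 on the left and 2.04 on the right, against -0.01 over all features. In S2A-S7A it was 0.91 and 2.62, against 0.00 over all features. Since 2 of the tested genes entered through these libraries, the counts were taken again over the 21 that pass without them, where 10 rose in S2A and 11 in S2A-S7A. The median over those 21, both ends together, was 1.13 in S2A and 1.32 in S2A-S7A. Over the 18 genes with at least 0.459 CPM in both WT libraries, 8 rose in S2A and 9 in S2A-S7A. Their medians were 0.11 on the left and 1.52 on the right in S2A, and 0.88 and 1.87 in S2A-S7A. Over the 19 tested genes with no close protein copy, 11 and 12 rose. Both counts include SPBC1348.11 and SPBPB2B2.07c, which entered through the libraries of S2A and S2A-S7A. S2A-S7A had the highest mean of the 8 strains in 16 of the 23 tested genes, where 16% of all features had theirs in that strain. These 16 include SPBPB2B2.07c, which entered through the libraries of S2A and S2A-S7A. Without 1 library of the comparison, the number called fell to between 4 and 7 in S2A and between 7 and 11 in S2A-S7A, with all 4 left-out libraries giving fewer than the full set. By the same distance rule on chromosome I, 2 of 13 right genes and 0 of 15 left genes rose in S2A, with 2 left genes lower. In S2A-S7A, 3 right genes and 1 left gene of chromosome I rose and 3 left genes fell. The medians on chromosome I were -0.06 on the left and 1.09 on the right in S2A, with 12 of 13 right genes positive. In S2A-S7A the left median was 0.09, and 13 of 13 right genes were positive. The blocked fit called 4 right genes of chromosome I in S2A and 6 in S2A-S7A, all higher. That fit called 29.4% of all features in S2A, 15.4% higher, and 37.9% in S2A-S7A, 18.4% higher. Whether the chromosomes differ was not tested.

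Fewer of the genes were called in the other mutants. The share of the 23 called was 17.4% in Y1F, 0% in T4A, 4.35% in S7A, 8.7% in Y1F-S7A and 13% in T4A-S7A. In Y1F, 1 left gene rose, 2 left genes fell and 1 right gene fell, against 2.96% of all features called, 1.29% higher and 1.67% lower. In T4A none was called by edgeR, against 0.0935% of all features, 0.0156% higher and 0.0779% lower. At an unadjusted p below 0.05, 7 of the 23 were past the threshold there, against 492 of 6420 features, and DESeq2 called 2, against 0.972% of features. In S7A, 1 right gene fell, against 1.71% of features called, 0.997% higher and 0.717% lower. In Y1F-S7A, 1 gene rose at each end, against 7.21% of features called, 3.74% higher and 3.47% lower. In T4A-S7A, 2 left genes fell and 1 right gene rose, against 2.79% of features called, 1.11% higher and 1.68% lower. The blocked fit gave more calls, with 6 in Y1F, 1 in T4A, 6 in S7A, 9 in Y1F-S7A and 6 in T4A-S7A. It also called more of all features, 12.6%, 1.64%, 8.1%, 24.9% and 10.9%. T4A had a positive log2 fold change in 1 left and 1 right gene only, of the 12 and 9 with over 3 reads in T4A or WT, where 3270 of 6420 features were positive. The medians over these were -0.58 and -0.52. In S7A the medians over the genes with over 3 reads in either strain were -0.44 on the left and -0.59 on the right. A joint test of any difference among the 8 strains called 10 left and 9 right genes, against 22.3% of all features. Over the 21 genes that pass the filter without the libraries of S2A and S2A-S7A, it called 17. The 4 tested genes it did not call were ght7, SPBPB8B6.05c, fex2 and say1.

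**Figure D2:**
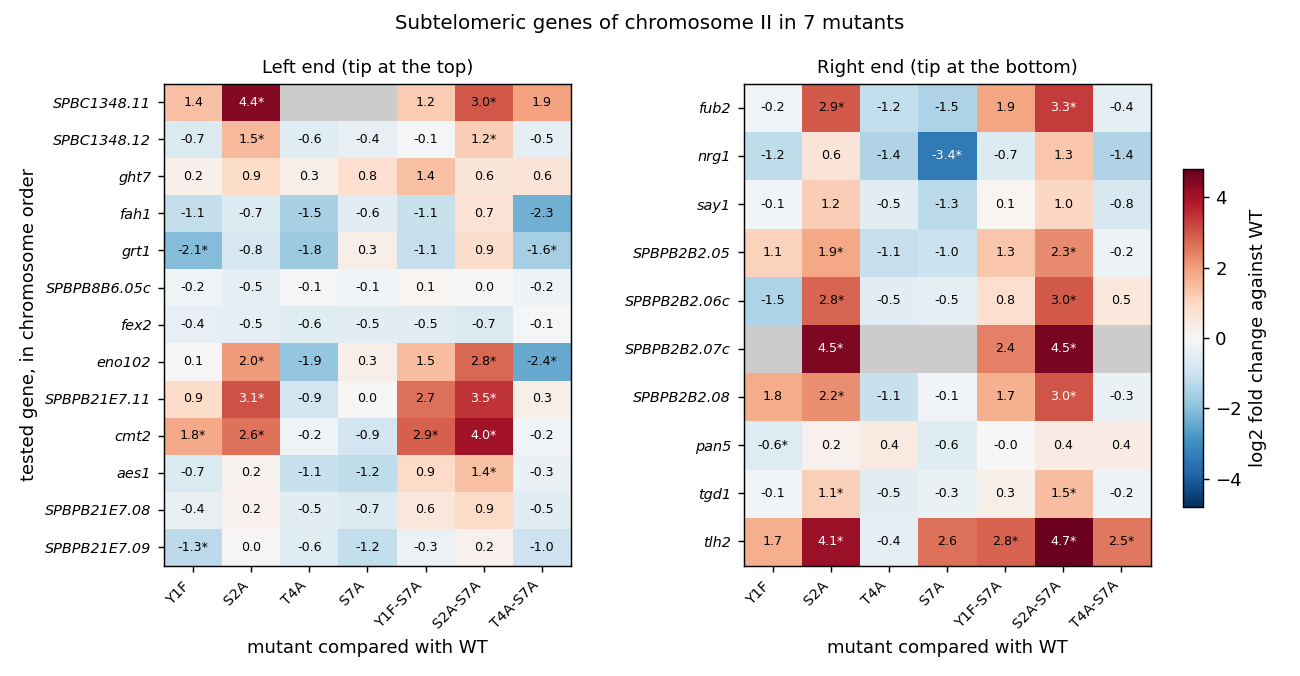
Log2 fold change against WT (colour and printed value) of the 13 tested left and 10 tested right genes in each of the 7 mutants, in chromosome order. An asterisk marks an adjusted p below 0.05 and grey marks a comparison with at most 3 reads in both strains. The S2A and S2A-S7A columns hold 25 of the asterisks, all on positive values. These include SPBC1348.11 and SPBPB2B2.07c, which passed the count filter only through the libraries of those strains.

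The helicase gene tlh2 is the outermost annotated gene on the right (chrII:4526885-4532899, plus strand) and codes for a telomere-linked RecQ helicase. Its copy tlh1 on chromosome I codes for a protein identical to it over 98% of its length, and had 0 reads in all 16 libraries. Of the 5966 windows of 50 bases in tlh2, 403 are unique, 353 of them in the last bases of the row, 5614 to 6015, so the counts may sample a small part of the gene. The level of tlh2 was 0.183 and 0.731 CPM in the WT libraries, 8.70 and 7.67 in S2A, and 13.6 and 10.7 in S2A-S7A. It was 0.918 and 2.18 CPM in Y1F, 0.375 and 0.308 in T4A and 3.97 and 1.81 in S7A. In Y1F-S7A it was 2.51 and 4.26 CPM, and in T4A-S7A 2.50 and 2.90. Every library other than those of T4A was above both WT libraries, and the 4 libraries with S2A were the highest. tlh2 rose in S2A by 4.14 ± 0.61 (SE, log2, n = 2 per strain, edgeR adjusted p = 0.00083) and in S2A-S7A by 4.71 ± 0.61 (adjusted p = 0.00046). Both calls held without each library in turn, with adjusted p between 0.00298 and 0.0102 and between 0.00241 and 0.00579. It rose by 2.85 ± 0.60 in Y1F-S7A (adjusted p = 0.016), a call lost without WT replicate 1 or Y1F-S7A replicate 2 (adjusted p 0.025 to 0.102). Its rise of 2.53 ± 0.60 in T4A-S7A (adjusted p = 0.048) was lost without any 1 of the 4 libraries (0.0571 to 0.272). In S7A the difference was 2.64 ± 0.60 with an adjusted p of 0.052, and the blocked adjusted p was 0.013. The fitted value in S2A ran from 3.48 without WT replicate 1 to 5.45 without WT replicate 2.

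Of the 10 tested genes for enzymes, 5 rose in S2A and 5 in S2A-S7A, where 7.17% and 8.49% of all features rose. The largest change among them in S2A-S7A was that of cmt2 (chrII:64487-65620), a catechol O-methyltransferase. Its level was 3.15 and 4.08 CPM in WT, 22.0 and 21.8 in S2A and 47.9 and 71.2 in S2A-S7A. It was 8.65 and 17.2 CPM in Y1F and 28.6 and 24.1 in Y1F-S7A, while the 6 libraries of T4A, S7A and T4A-S7A held 1.80 to 4.10 CPM. Libraries with Y1F or S2A were thus all above the WT pair, and the others lay near or below it. cmt2 rose by 2.59 ± 0.36 in S2A (adjusted p = 0.00059), by 4.04 ± 0.38 in S2A-S7A (9.3e-05) and by 2.86 ± 0.37 in Y1F-S7A (0.0013). These 3 calls held without each library in turn, with the largest adjusted p at 0.0119, 0.0022 and 0.0173. The rise of 1.84 ± 0.36 in Y1F (adjusted p = 0.021) was lost without Y1F replicate 2 or either WT library (0.0154 to 0.142). Adding S7A to S2A went with a further 1.44 ± 0.34, with an adjusted p of 0.094 and a blocked adjusted p of 0.012.

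eno102 (chrII:58136-59704), an enolase gene whose protein is 66.1% identical to that of eno101, differed in both directions. It was measured at 4.71 and 3.95 CPM in WT, 17.9 and 17.6 in S2A and 20.9 and 38.5 in S2A-S7A. The T4A libraries held 1.77 and 0.513 CPM and the T4A-S7A libraries 1.09 and 0.422. The libraries with S2A were all above WT and those with T4A all below it. It rose by 2.04 ± 0.45 in S2A (adjusted p = 0.012), a call lost without S2A replicate 1 or either WT library (0.0465 to 0.0963). The rise of 2.77 ± 0.46 in S2A-S7A (0.0021) held throughout, up to an adjusted p of 0.0294. It fell by 2.43 on the log2 scale in T4A-S7A (SE 0.51, adjusted p = 0.026), which was lost without any 1 of the 4 libraries (0.0575 to 0.213), and its log2 fold change was -1.86 in T4A. In Y1F-S7A it was 1.47 ± 0.45, with an adjusted p of 0.071 and a blocked adjusted p of 0.017. An opposite-strand non-coding row overlaps eno102, and likewise cmt2, SPBPB21E7.08 and fub2. The library kit is stranded, but the counting tool and its strand setting are not given in the sources used here.

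SPBPB2B2.06c (chrII:4469018-4471207), a phosphoprotein phosphatase gene, had the highest CPM in S2A and in S2A-S7A of the genes that rose in both strains. Scaled to gene length, cmt2 was higher in S2A-S7A, at 52.5 RPKM against 43.1 for SPBPB2B2.06c. SPBPB2B2.06c held 13.8 and 10.5 CPM in WT, 85.8 and 84.7 in S2A and 104 and 84.2 in S2A-S7A, while the 10 libraries of the other mutants held 3.08 to 24.6. The 4 libraries with S2A were thus above every other library of the series, with no overlap. The rises of 2.81 ± 0.39 (adjusted p = 0.00057) and 2.96 ± 0.39 (0.00052) held without each library in turn, up to adjusted p of 0.0134 and 0.0125. In Y1F its log2 fold change was -1.48 ± 0.40, with an adjusted p of 0.08 and a blocked adjusted p of 0.045.

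The other 2 enzyme genes that rose in both strains were tgd1 and SPBPB2B2.05. tgd1, for a nucleotide-sugar dehydratase, held 8.45 and 5.03 CPM in WT, 14.0 and 15.4 in S2A and 17.8 and 19.5 in S2A-S7A. It rose by 1.13 ± 0.26 (adjusted p = 0.014) and 1.47 ± 0.26 (0.003). The call in S2A was lost without S2A replicate 1, S2A replicate 2 or WT replicate 2 (0.00775 to 0.12), and that in S2A-S7A held, up to 0.0319. SPBPB2B2.05, a class I glutamine amidotransferase family gene, held 3.93 and 3.70 CPM in WT, 15.0 and 12.8 in S2A and 21.8 and 15.1 in S2A-S7A. Its rise of 1.87 ± 0.54 in S2A (adjusted p = 0.043) was lost without any 1 of the 4 libraries (0.0995 to 0.195). That of 2.28 ± 0.55 in S2A-S7A (0.015) was lost without S2A-S7A replicate 1 or either WT library (0.0332 to 0.101). In Y1F-S7A its log2 fold change was 1.34 ± 0.54 (adjusted p = 0.17, blocked adjusted p = 0.013).

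The remaining enzyme genes were not called in the strains with S2A. SPBPB21E7.09 and SPBPB8B6.05c code for L-asparaginases. SPBPB21E7.09 held 28.8 and 24.8 CPM in WT and 11.1 in both Y1F libraries, a fall of 1.27 on the log2 scale (SE 0.27, adjusted p = 0.029). That call was lost without any 1 of the 4 libraries (0.0965 to 0.165). Its log2 fold change was -1.17 ± 0.27 in S7A, with an adjusted p of 0.057 and a blocked adjusted p of 0.007, and -0.98 ± 0.27 in T4A-S7A, with 0.10 and a blocked adjusted p of 0.016. SPBPB8B6.05c ran from 11.8 to 28.9 CPM over the 16 libraries and was called in no comparison with WT. pan5 held 109 and 97.8 CPM in WT and 56.9 and 76.7 in Y1F, and fell by 0.63 on the log2 scale (SE 0.13, adjusted p = 0.028). That call was lost without Y1F replicate 1 or either WT library (0.0168 to 0.197). In S7A its log2 fold change was -0.59 ± 0.13 (adjusted p = 0.051, blocked adjusted p = 0.007), in S2A-S7A 0.41 ± 0.13 (0.058, blocked 0.013) and in T4A-S7A 0.38 ± 0.13 (0.19, blocked 0.045). say1, for a sterol deacetylase, held 6.53 and 3.18 CPM in WT and 12.5 and 9.30 in S2A. Its log2 fold change in S2A was 1.17 ± 0.72 (adjusted p = 0.36, blocked adjusted p = 0.0083), in S2A-S7A 0.99 ± 0.72 (0.41, blocked 0.021) and in S7A -1.28 ± 0.76 (0.61, blocked 0.032). fah1, for an acetamidase, overlaps grt1 on the opposite strand. It held 1.23 and 0.731 CPM in WT and 0.219 and 0.158 in T4A-S7A, a log2 fold change of -2.31 ± 0.57 (adjusted p = 0.055, blocked adjusted p = 0.028).

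**Figure D3:**
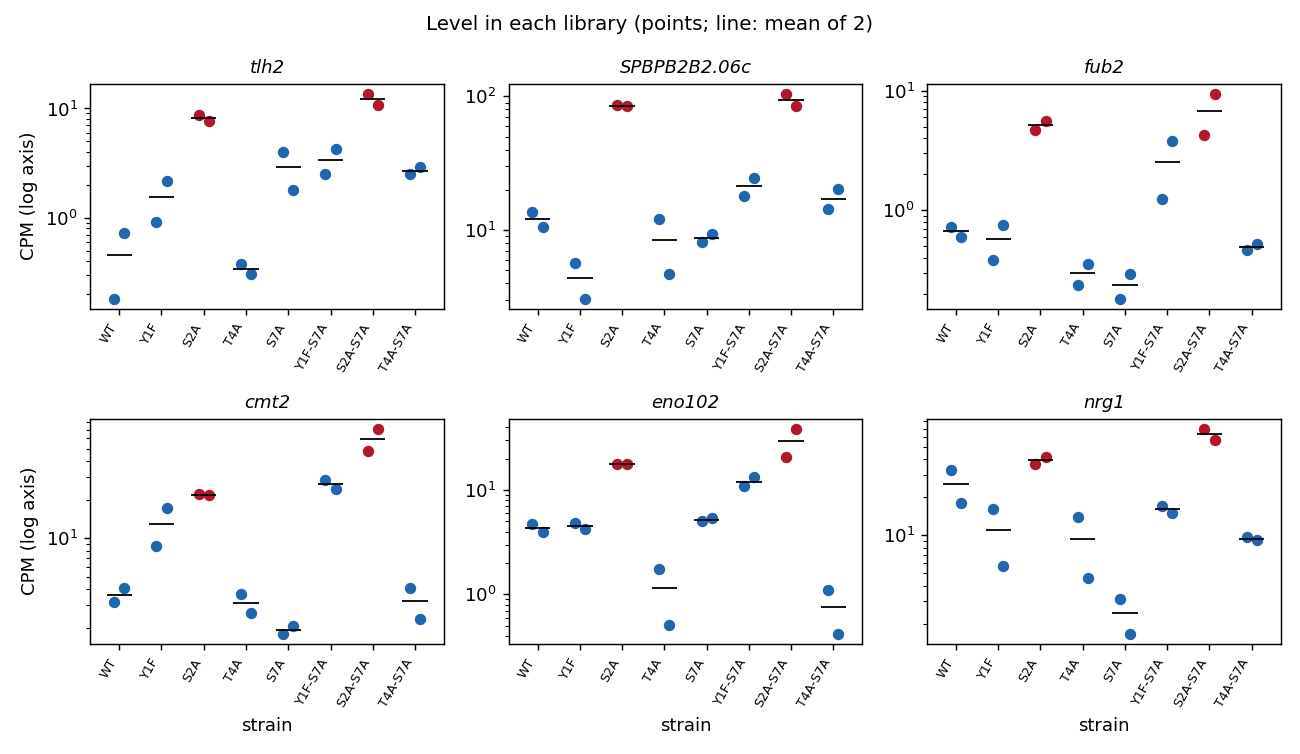
CPM on a log axis in each of the 16 libraries (points) with the mean of the 2 libraries per strain (line) for tlh2, SPBPB2B2.06c, fub2, cmt2, eno102 and nrg1. Red points are libraries of S2A and S2A-S7A, which lie above both WT libraries in all 6 panels; in the nrg1 panel the S7A libraries are the lowest.

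The 2 genes for transcription factors were called in different strains. SPBC1348.12 (chrII:35112-36589), a DNA-binding transcription factor, held 8.13 and 6.83 CPM in WT, 24.2 and 19.5 in S2A and 15.9 and 18.1 in S2A-S7A. The other 10 libraries held at most 7.66. It rose by 1.55 ± 0.24 in S2A (adjusted p = 0.0012), which held without each library, up to 0.0204. The rise of 1.18 ± 0.24 in S2A-S7A (0.0062) was lost without WT replicate 2 (0.018 to 0.0638). grt1 (chrII:47369-51220) held 2.65 and 3.31 CPM in WT, 0.677 and 0.713 in Y1F, 0.749 and 1.03 in T4A and 0.939 and 1.06 in T4A-S7A. In S2A-S7A it held 4.92 and 5.88 CPM, above every other library. It fell by 2.09 on the log2 scale in Y1F (SE 0.38, adjusted p = 0.014), lost without WT replicate 2, Y1F replicate 1 or Y1F replicate 2 (0.0434 to 0.111). It fell by 1.58 in T4A-S7A (SE 0.36, adjusted p = 0.04), lost without any 1 of the 4 libraries (0.109 to 0.23). Its log2 fold changes elsewhere were -1.76 ± 0.37 in T4A (adjusted p = 0.17, blocked adjusted p = 0.022), -1.11 ± 0.35 in Y1F-S7A (0.081, blocked 0.026) and 0.85 ± 0.33 in S2A-S7A (0.11, blocked 0.04).

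None of the 3 genes for transporters rose in any mutant. nrg1 (chrII:4457661-4459842), which RefSeq lists as an amino-acid permease, held 32.8 and 18.2 CPM in WT and 3.16 and 1.67 in S7A. It held 37.0 and 42.0 CPM in S2A and 69.9 and 57.4 in S2A-S7A, the highest and lowest strains thus differing only by S2A on top of S7A. It fell by 3.38 on the log2 scale in S7A (SE 0.58, adjusted p = 0.014), which was lost without WT replicate 1, S7A replicate 1 or S7A replicate 2 (0.0391 to 0.159). In S2A-S7A its log2 fold change was 1.32 ± 0.51 (adjusted p = 0.11, blocked adjusted p = 0.018). The effect of S7A in S2A minus that in WT, the interaction, was 4.07 ± 0.77 (adjusted p = 0.046), the only one of these genes called there. Its S2A part, S2A-S7A against S2A, was 0.69, was not called and also changes the mating type. That call was lost in all 8 fits that leave out 1 library of WT, S2A, S7A or S2A-S7A (0.0628 to 0.241). ght7, a hexose transporter, ran from 0.387 to 2.05 CPM, and fex2, a fluoride export channel with the same protein as fex1, from 2.69 to 9.58. Neither was called in any comparison with WT.

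Of the 7 tested genes with another or no assigned product, 5 rose in S2A and 6 in S2A-S7A. The shares of all features that rose were 7.17% and 8.49%. Without SPBC1348.11 and SPBPB2B2.07c, which passed the filter only through those strains, the counts were 3 and 4 of 5. fub2 (chrII:4453054-4454161), of the PI31 proteasome regulator family, held 0.731 and 0.602 CPM in WT, 4.67 and 5.55 in S2A and 4.23 and 9.39 in S2A-S7A. Its rise of 2.93 ± 0.58 in S2A (adjusted p = 0.0061) was lost without WT replicate 2 (0.0227 to 0.0647). That of 3.34 ± 0.58 in S2A-S7A (0.0027) held, up to 0.0359. In Y1F-S7A the value was 1.89 ± 0.58 (adjusted p = 0.074, blocked adjusted p = 0.012).

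SPBPB2B2.08, an uncharacterized gene at the right end, held 1.78 and 2.75 CPM in WT, 9.55 and 11.7 in S2A and 17.7 and 18.9 in S2A-S7A. It rose by 2.22 ± 0.56 in S2A (adjusted p = 0.022), lost without any 1 of the 4 libraries (0.0611 to 0.153), and by 3.01 ± 0.57 in S2A-S7A (0.0043), which held up to 0.0459. In Y1F its replicates were 12.2 and 3.43 CPM, a log2 fold change of 1.78 ± 0.55 (adjusted p = 0.13, blocked adjusted p = 0.043), and in Y1F-S7A it was 1.70 ± 0.55 (0.088, blocked 0.026). SPBPB21E7.11, uncharacterized and next to cmt2, held 0.366 and 0.215 CPM in WT, 2.49 and 2.44 in S2A and 2.77 and 3.81 in S2A-S7A. Its rise of 3.07 ± 0.80 in S2A (adjusted p = 0.028) was lost without any 1 of the 4 libraries (0.0768 to 0.177). That of 3.48 ± 0.80 in S2A-S7A (0.013) was lost without S2A-S7A replicate 2 or either WT library (0.0267 to 0.106). In Y1F-S7A the difference was 2.65 ± 0.81 (adjusted p = 0.072, blocked adjusted p = 0.018).

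The lowest WT counts were those of SPBC1348.11 and SPBPB2B2.07c. SPBC1348.11, a pseudogene, had 3 reads over both WT libraries, 81 in S2A and 26 in S2A-S7A. Scaled to the library sizes, the ratios to WT were 23.7 (95% exact binomial counting interval 7.82 to 117) and 8.46 (2.59 to 43.7). The fitted changes, which depend on the prior count, were called in S2A (adjusted p = 0.0054) and S2A-S7A (0.047). The first was lost without S2A replicate 1 or WT replicate 2 (0.00596 to 0.0645) and the second without any 1 of the 4 libraries (0.0893 to 0.23). SPBPB2B2.07c, an uncharacterized gene with 39.8% unique windows, had 1 read over both WT libraries, 31 in S2A and 30 in S2A-S7A. The ratios were 27.2, with a lower bound of 4.53, and 29.3, with a lower bound of 4.87. It was called in S2A (adjusted p = 0.02), lost without any 1 of the 4 libraries (0.055 to 0.123), and in S2A-S7A (0.016), lost without S2A-S7A replicate 1 or either WT library (0.0249 to 0.0969). These intervals cover counting error only.

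aes1, the left gene with the highest RPKM in WT, was highest in S2A-S7A. It held 196 and 101 CPM in WT, 75.8 and 53.3 in S7A, 171 and 165 in S2A, 469 and 320 in S2A-S7A and 285 and 277 in Y1F-S7A. In Y1F it held 112 and 70.7 CPM, in T4A 92.8 and 50.5 and in T4A-S7A 122 and 116. It rose by 1.41 ± 0.35 in S2A-S7A (adjusted p = 0.019), a call lost without S2A-S7A replicate 1 or WT replicate 2 (0.0136 to 0.145). In S7A its log2 fold change was -1.20 ± 0.35 (adjusted p = 0.15, blocked adjusted p = 0.012) and in Y1F-S7A 0.92 ± 0.35 (0.15, blocked 0.01). Its neighbour SPBPB21E7.08 held 148 and 176 CPM in WT and 304 and 306 in S2A-S7A and was called in no comparison with WT.

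No subtelomeric gene was called by edgeR between a double mutant and its parent that lacks S7A. The share of features called was 0.0156% for Y1F-S7A against Y1F, 0.483% for S2A-S7A against S2A and 0.187% for T4A-S7A against T4A. At an unadjusted p below 0.05, 11, 5 and 3 of the 23 genes were past the threshold, against 370, 795 and 527 of 6420 features. DESeq2 called 3, 3 and 1, against 0.961%, 3.84% and 1.63% of features. The blocked fit called 4, 3 and 1, all higher in the double mutant, against 1.36%, 10.6% and 2.51% of features. These were aes1 (1.63 ± 0.36, adjusted p = 0.17, blocked adjusted p = 0.0072), SPBPB2B2.06c (2.29 ± 0.40, 0.067, 0.025), fub2 (2.10 ± 0.59, 0.34, 0.046) and pan5 (0.59 ± 0.13, 0.19, 0.021) for Y1F. For S2A they were grt1 (1.67 ± 0.35, 0.057, 0.006), cmt2 and aes1 (1.23 ± 0.35, 0.15, 0.0098), with the change of mating type in the same comparison. For T4A it was tlh2 (2.95 ± 0.62, 0.1, 0.025). For the interactions with S7A, edgeR called none with Y1F, nrg1 with S2A and none with T4A, against 0%, 0.483% and 0.0156% of all features. For S2A, 0.312% of features had a positive and 0.171% a negative interaction. At an unadjusted p below 0.05 there were 9, 9 and 6 genes, against 354, 576 and 330 features. DESeq2 called 7, 5 and 2, against 0.898%, 2.41% and 0.545% of features, and the blocked fit 5, 5 and 1, against 1.15%, 3.64% and 0.374%.

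After these values were seen, S2A was also set against the other single mutants, and S2A-S7A against S7A, since 2 strains that each differ from WT need not differ from each other. Against Y1F, 4 left and 5 right genes were higher in S2A, where 6% of features were called, 4.72% higher and 1.28% lower. The blocked fit gave 15, where it called 16.9% of features. Against T4A, 6 left and 8 right genes were higher, where 16.4% were called, 10.5% higher and 5.86% lower. Against S7A there were 7 and 8, where 14.8% were called, 8.83% higher and 5.95% lower. In S2A-S7A, 8 left and 9 right genes were higher than in S7A, where 14.1% of features were called, 7.62% higher and 6.5% lower. Over the 21 genes that pass the filter without the libraries of S2A and S2A-S7A, the numbers were 8, 12, 13 and 15. No subtelomeric gene was called lower in these 4 comparisons by edgeR, and the blocked fit called grt1 lower in S2A than in S7A (-1.10 ± 0.34, adjusted p = 0.053, blocked adjusted p = 0.014). S2A-S7A and S7A are both h-, so this last comparison holds the mating type fixed. In it, cmt2 was higher by 4.95 ± 0.40 (adjusted p = 4.6e-05), fub2 by 4.83 ± 0.66 (0.00071), nrg1 by 4.70 ± 0.61 (0.00059), SPBPB2B2.06c by 3.43 ± 0.40 (0.0004) and tlh2 by 2.06 ± 0.51 (0.02). Both S2A and S7A libraries held more tlh2 CPM than either WT library, and the difference between them was 1.49 ± 0.51 (adjusted p = 0.073, blocked adjusted p = 0.022).

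Along the chromosome, the genes that rose were not next to the tips alone. On the left, those that rose in S2A-S7A lay at 33.2 (SPBC1348.11) and 35.1 kb (SPBC1348.12) and then from 58.1 (eno102) to 70.2 kb (aes1). Between these stretches, ght7, fah1, grt1, SPBPB8B6.05c and fex2 were not called in S2A or S2A-S7A. On the right they were tlh2 at the tip and 6 genes from 45.6 (tgd1) to 78.7 kb (fub2), with pan5, nrg1 and say1 among them not called. SPBC1348.11 on the left and SPBPB2B2.07c, among the 6 on the right, passed the count filter only through the libraries of S2A and S2A-S7A. In the blocked fit all 10 right genes and, on the left, grt1 were also called higher in S2A-S7A. There it called 37.9% of all features, 18.4% higher and 19.5% lower. Outside the limit on the left, SPBPB10D8.01 had log2 fold changes of 0.58 in S2A and 0.35 in S2A-S7A, beside 0.04 and 0.21 in SPBPB21E7.09 just inside. On the right, pho1 had -0.83 and 0.78, beside 2.93 and 3.34 in fub2 just inside.

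**Figure D4:**
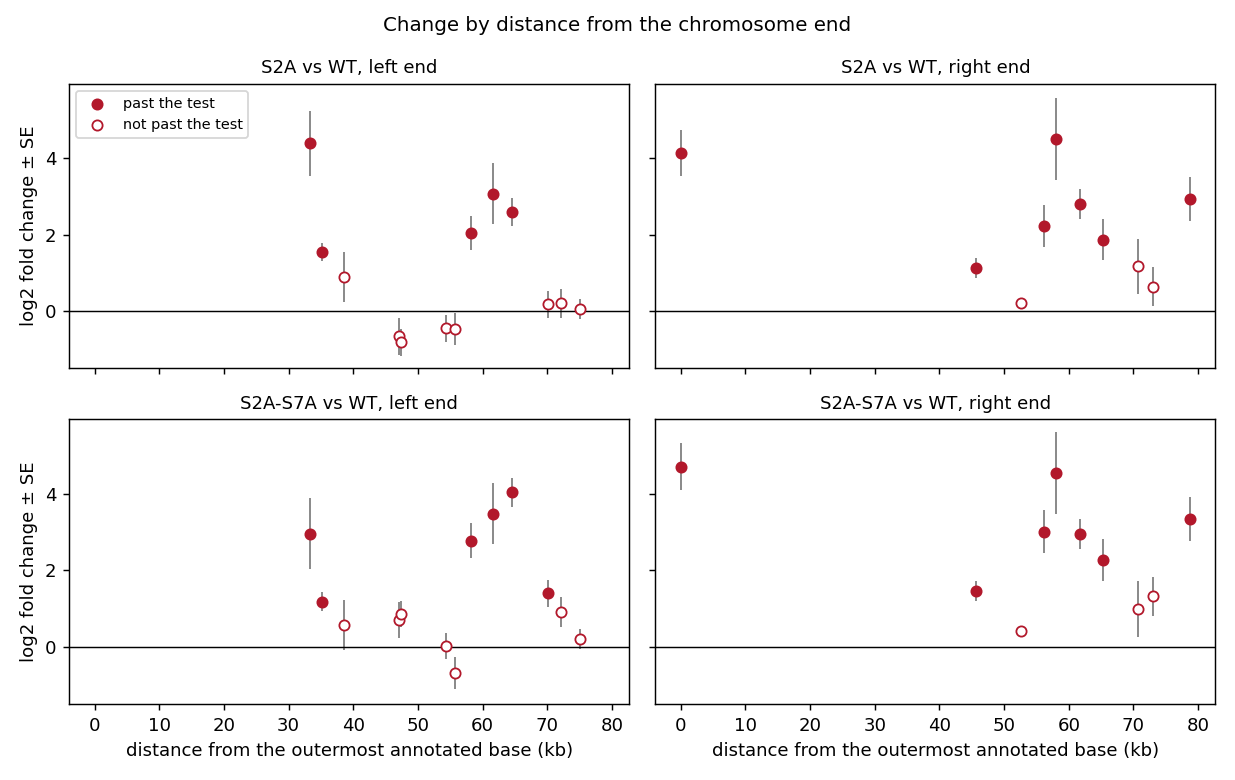
Log2 fold change against WT with its SE (vertical axis) for the tested genes by distance from the outermost annotated base (horizontal axis, kb), in S2A and S2A-S7A at each end. Filled circles are past the test and open ones are not; the left panels have no tested gene within 33.2 kb of the tip and the right panels none between tlh2 and tgd1 at 45.6 kb.

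The 200 bases upstream of 4 of the genes that rose together in S2A and S2A-S7A are shown, since 2 of them sit in the left cluster and 2 at the right end. They come from ASM294v3, read 5′ to 3′ on the strand of the gene, and capitals mark TATAAA, the TATA box letters, or its reverse complement. The stretches are chrII:65621-65820 (minus) for cmt2, chrII:59705-59904 (minus) for eno102, chrII:4452854-4453053 (plus) for fub2 and chrII:4471208-4471407 (minus) for SPBPB2B2.06c.
cmt2: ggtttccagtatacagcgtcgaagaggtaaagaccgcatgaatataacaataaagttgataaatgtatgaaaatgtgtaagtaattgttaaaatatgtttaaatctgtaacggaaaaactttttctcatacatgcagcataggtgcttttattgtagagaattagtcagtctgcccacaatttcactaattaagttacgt
eno102: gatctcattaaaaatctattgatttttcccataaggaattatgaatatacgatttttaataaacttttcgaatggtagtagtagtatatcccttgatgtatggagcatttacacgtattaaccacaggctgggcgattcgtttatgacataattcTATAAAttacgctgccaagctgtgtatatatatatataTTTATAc
fub2: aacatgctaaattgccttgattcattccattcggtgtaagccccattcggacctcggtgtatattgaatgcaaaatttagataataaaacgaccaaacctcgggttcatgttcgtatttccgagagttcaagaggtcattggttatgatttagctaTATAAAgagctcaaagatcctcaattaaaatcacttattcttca
SPBPB2B2.06c: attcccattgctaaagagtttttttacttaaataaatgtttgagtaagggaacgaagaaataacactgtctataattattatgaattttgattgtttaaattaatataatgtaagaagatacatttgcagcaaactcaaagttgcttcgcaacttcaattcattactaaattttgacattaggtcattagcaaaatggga
TATAAA on either strand was present in 10 of the 23 tested genes (43.5%), in 3 of the 13 that rose in S2A-S7A (23.1%) and in 38.9% of 5430 such stretches of chromosomes I to III. TGACGT, the core letters of the site bound by ATF and CREB family factors, was present on either strand in 1 of the 23, in 0 of the 13 and in 3.92% of all stretches.

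Genes whose products bind telomeres or build heterochromatin were read from lists. Of 11 shelterin and telomere genes, all tested, est1 fell in S2A by 0.66 on the log2 scale (SE 0.19, adjusted p = 0.042). It was the only one called there, 9.09% of the list against 11.9% of features, and the lowest value of the list, -2.21, was not called. rap1, a telomere binding protein gene, fell in S2A-S7A by 0.89 (SE 0.17, adjusted p = 0.0038), again 9.09% of the list, against 16.5% of features. Of the 11, the blocked fit called 4 in S2A, 1 of them higher, where it called 29.4% of features. In S2A-S7A it called 4, all lower, against 37.9% of features. Of 20 listed heterochromatin genes, 4 fell in S2A-S7A, which is 20%, against 16.5% of features. They were chp1 (-0.55 ± 0.13, adjusted p = 0.013), rik1 (-0.50 ± 0.13, 0.02), sir2 (-0.77 ± 0.24, 0.047) and stc1 (-0.90 ± 0.28, 0.043). In Y1F-S7A the 1 gene called of the 20, clr4, the histone H3 lysine 9 methyltransferase gene, fell by 0.61 (SE 0.14, adjusted p = 0.02). That is 5% of the 20, against 7.21% of features. In S2A edgeR called none of the 20, with 4 at an unadjusted p below 0.05, while the blocked fit called 7 in S2A, 2 of them higher, where it called 29.4% of features. It called 9 lower in S2A-S7A, against 37.9% of features, and 7 lower in Y1F-S7A, against 24.9% of features. Whether these changes have a part in those of the subtelomeric genes was not tested.

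In the authors' deposited table, their DESeq comparison of S2A with WT has 5 left and 5 right subtelomeric genes higher and none lower at an adjusted p below 0.05. For S2A-S7A it has 3 and 6 higher and none lower. Against the parents that lack S7A, it has 1 left and 1 right gene higher in Y1F-S7A and 1 right gene higher in T4A-S7A. None is higher in S2A-S7A against S2A, and none is lower in these 3 comparisons. The share of all features called in the authors' comparisons is not given here, so these counts have no background beside them. The authors' deposited table gives tlh2 a log2 fold change of 3.94 in S2A (adjusted p = 1.3e-11) and 4.51 in S2A-S7A (2.3e-15). It gives fub2 3.12 in S2A-S7A with an adjusted p of 0.057.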

How the data were processed

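Read counts per annotated feature, deposited by the authors as 1 table of 7022 features and 16 libraries, were the input for all tests. The aligner was Bowtie 0.12.7 according to the submitters' processing notes. The genome build, read length, counting tool and treatment of reads with several matches are not given in the sources used here. Beside the counts, the authors deposited DESeq log2 fold changes and adjusted p-values, and a width per feature used for RPKM.

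The tests used edgeR 4.0.16 (R 4.3.3): filterByExpr by strain (minimum count 10), TMM, 1 coefficient per strain over all 16 libraries, and a robust quasi-likelihood test, two-sided, with Benjamini-Hochberg adjustment over 6420 features. The fit was tested on simulated data. Alternatives were RLE scaling, no filter, a replicate block, only the strains compared, DESeq2 1.42.0, genes with close copies left out, and each library left out. Deviations of same-numbered replicates correlated in all 28 pairs of strains (0.24 to 0.67), so the numbers were taken to pair the samples. Over the tested subtelomeric genes alone the correlation ran from -0.14 to 0.52. Proteins were compared with blastp 2.17.0.

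The genes, lists and comparisons were chosen with earlier results of these data known. Named genes were, per comparison with WT and end, the 5 highest and 5 lowest called, then the 10 smallest adjusted p of the joint test per end, tlh2, the outermost rows and the genes beside the 80000-base limit. Other tested genes were named after their values were seen. Some results on the heterochromatin list are not reported here.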

Additional observations from a re-analysis of the deposited data

Results flagged for a closer look

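The interaction of S2A and S7A in nrg1 differed between backgrounds, with 4.07 on the log2 scale (SE 0.77, edgeR adjusted p = 0.046). S7A went with a lower level in the WT background, in both libraries. In the S2A background both libraries with S7A were higher, but this log2 fold change of 0.69 was not called. The mating type changes in that comparison too, from h+ to h-, and its part cannot be told apart. The blocked p was 0.0062, and the adjusted p ran from 0.0628 to 0.241 in the 8 fits without 1 library of the 4 strains.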

How the results depend on the processing

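No called fold change of a named gene changed sign under any alternative. Of 91 calls, all held with RLE scaling, with the replicate block and with DESeq2, and 89 without the count filter. With only the strains compared, 73 of the 90 calls that could be refitted held. Leaving out each library of the comparison in turn, 43 held throughout and 48 were lost at least once. With the replicate block, the numbers called were 1 in T4A, 6 in S7A, 9 in Y1F-S7A and 6 in T4A-S7A against WT, 4, 3 and 1 for the double mutants against Y1F, S2A and T4A, 5, 5 and 1 for the interactions with Y1F, S2A and T4A, and 15 for S2A against Y1F. The block ended no call of a named gene and moved none of the other counts of chromosome II subtelomeric genes by over 1.5 times. On the right of chromosome I it moved the count from 2 to 4 in S2A and from 3 to 6 in S2A-S7A. On the left it moved the higher count from 0 to 1 in S2A and from 1 to 2 in S2A-S7A. It moved the heterochromatin genes lower in S2A-S7A from 4 to 9. The share of all features called moved from 11.9% to 29.4% in S2A and from 16.5% to 37.9% in S2A-S7A. With DESeq2 the numbers of subtelomeric genes called were 2 in T4A, 5 in S7A, 7 in Y1F-S7A and 5 in T4A-S7A, 3, 3 and 1 against the parents, and 7, 5 and 2 for the interactions. With only the strains compared, Y1F, S7A and T4A-S7A gave 0 each. Without the filter S7A gave 2, and without genes with a close copy Y1F-S7A gave 1. Over all 16 fits without 1 library, counts against WT were 0 to 5 in Y1F, 4 to 12 in S2A, 0 in T4A, 0 to 3 in S7A, 1 to 3 in Y1F-S7A, 7 to 13 in S2A-S7A and 0 to 3 in T4A-S7A. They were 0 to 1 for Y1F-S7A against Y1F and 0 for the other parents, 0 to 2 for the interactions with Y1F and S2A and 0 with T4A. For S2A they were 4 to 10 against Y1F, 11 to 14 against T4A and 9 to 16 against S7A, for S2A-S7A against S7A 10 to 17, and 17 to 19 in the joint test. The cause of these differences was not tested.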
